A study of Mus musculus with 36 samples.

Results

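The 9 genes described here encode proteins of the pericellular matrix and were followed across the 2 captured compartments, 2 genotypes and 3 exposures of the E19 mouse mammary gland, namely *Tnc*, *Tnxb*, *Vcan*, *Fn1*, *Postn*, *Sparc*, *Thbs1*, *Thbs2* and *Thbs3*. They were taken by name, as every probe set annotated to exactly 1 of these symbols, which gave 23 of the 45101 probe sets of the array and 9 of the 18194 genes it names. Where 1 value is given for a gene it is that of the probe set with the highest mean over the 36 arrays. A probe set is a group of short probes on the Affymetrix array meant to read the transcripts of a gene, and 932 probe sets carry several gene symbols. Differences are on the log2 scale with their standard error (SE) from limma, and an adjusted p is corrected over all 45101 probe sets by the Benjamini-Hochberg method, with 0.05 as the threshold. Signals are in the arbitrary linear units of the array and are compared only within a probe set.

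Female C57BL/6 fetuses, ERα(+/+) or ERα(−/−), came from dams that received vehicle (50% DMSO), BPA at 250 ng/kg/day or EE2 (ethinylestradiol, a steroidal estrogen) at 10 ng/kg/day by osmotic pump from E8 to E19. Epithelium and peri-ductal stroma of the same gland were both captured, and each of the 12 combinations of compartment, genotype and exposure had 3 arrays. Fetuses of both genotypes came from matings of heterozygous parents, 1 per genotype and litter, and the allele was not restricted to a compartment, so that no group isolates the receptor of the stroma or of the epithelium. Each array held amplified RNA of 1 gland compartment, cut by laser from stained frozen sections. BPA, a plastics monomer with weak estrogenic activity, and EE2 were given to the dam, and the doses reaching the fetal gland were not measured in these data.

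Matricellular proteins are secreted proteins that sit in the extracellular matrix and act on cells through integrins, syndecans and other receptors rather than serving as structural scaffold. Tenascin-C, encoded by *Tnc*, is laid down by the mesenchyme that surrounds growing epithelial buds, and tenascin-X, encoded by *Tnxb*, is associated with collagen fibrils of connective tissue. Versican (*Vcan*) is a large chondroitin sulfate proteoglycan that binds hyaluronan. Fibronectin (*Fn1*) is the fibrillar glycoprotein bound by several integrins, periostin (*Postn*) and SPARC (*Sparc*) bind collagens, and the thrombospondins (*Thbs1*, *Thbs2*, *Thbs3*) bind calcium and several matrix and cell surface partners.

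*Tnc*, *Vcan* and *Thbs2* are shown first by the 250 bases before a RefSeq start site (GRCm38.p6, 5′ to 3′ on the strand of the gene), since these were the genes whose signal after BPA lay below that after vehicle on all ERα(+/+) stroma arrays. Capitals mark TATAAA and GGGCGG on either strand. TGANTCA and the palindromic estrogen response element were also searched on both strands in these windows and in all 32851 of the table.
Tnc, chr4:64046937-64047186, minus strand: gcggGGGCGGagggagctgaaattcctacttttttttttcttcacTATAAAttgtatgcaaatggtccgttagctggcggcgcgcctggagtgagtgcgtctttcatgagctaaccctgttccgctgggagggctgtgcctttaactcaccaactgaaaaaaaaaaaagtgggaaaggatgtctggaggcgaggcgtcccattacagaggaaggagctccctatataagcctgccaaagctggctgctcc
Vcan, chr13:89742513-89742762, minus strand: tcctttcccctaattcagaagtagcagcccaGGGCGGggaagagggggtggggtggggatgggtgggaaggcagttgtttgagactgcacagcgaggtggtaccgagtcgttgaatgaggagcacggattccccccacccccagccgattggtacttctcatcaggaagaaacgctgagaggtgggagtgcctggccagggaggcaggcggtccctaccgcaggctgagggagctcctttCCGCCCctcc
Thbs2, chr17:14694263-14694512, minus strand: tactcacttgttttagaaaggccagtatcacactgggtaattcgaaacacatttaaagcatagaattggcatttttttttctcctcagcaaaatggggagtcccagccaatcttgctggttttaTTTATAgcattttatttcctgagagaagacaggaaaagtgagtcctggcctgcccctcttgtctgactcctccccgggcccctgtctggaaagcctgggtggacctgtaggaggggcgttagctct
The *Tnc* window held TATAAA 205 bases and GGGCGG 246 bases upstream of the start site. The *Vcan* window held GGGCGG 219 bases upstream and, on the opposite strand, 10 bases upstream. The *Thbs2* window held TATAAA on the opposite strand, 126 bases upstream. Over all windows of this length, 12.4% held TATAAA, 32.7% GGGCGG, 6.75% TGANTCA and 0.0639% the estrogen response element. The estrogen response element searched is GGTCA, 3 bases of any kind and its reverse complement. It was in none of the 9 windows of the 7 genes with a sequence, and TGANTCA was only in that of *Tnxb*, 55 bases upstream. The same TATAAA lay 126 bases upstream of a second *Tnc* start site. TATAAA was also in 1 of the 2 *Postn* windows, 26 bases upstream, and GGGCGG in that of *Thbs3*, 21 bases upstream on the opposite strand. No matches overlapped.

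Median signals of the arrays lay between 12 and 44.1 for the stroma and between 10.9 and 66.8 for the epithelium, and 3 arrays had a median under 15. All 18 epithelial markers were lower and all 12 measured fibroblast markers higher in the stroma past the adjusted threshold of the limma fit, as the labels of the compartments say. Epithelium arrays nevertheless carried fibroblast signal in varying amounts, with a summed signal of the 12 fibroblast markers from 7853 to 32843. Markers of epidermis or of skeletal muscle summed to more than 10000 on 7 arrays of 4 glands. The brightest *Esr1* probe set, for the targeted gene, gave a median of 114.5 (20.3 to 396.7) over 9 ERα(+/+) stroma arrays and of 37.6 (13.9 to 81.8) over 9 ERα(−/−) stroma arrays. The genotypes thus overlapped, and where the probe sets lie relative to the deleted part of the allele is not given in the sources used here.

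Between the compartments, 7 of the 9 genes were higher in the peri-ductal stroma and 1, *Vcan*, was higher in the epithelium. Over all probe sets, 4.51% were called higher in the stroma and 16.8% were called lower. The median log2 difference was −0.35 over all probe sets and 1.68 over the 9 genes. The split of all calls depended on scaling. Calls higher in the stroma were 21.2% of all calls on the deposited scale, 49.6% after quantile normalization and 56.8% after subtraction of array medians, whereas the directions of all 9 genes were the same on the 3 scales. In captures of whole compartments, fewer cells that express a gene and less RNA per cell cannot be told apart.

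*Postn*, *Fn1*, *Thbs2* and *Sparc* were higher in the stroma in every one of the 18 glands. *Postn* had a median of 4504 on stroma arrays (3230.6 to 6030.5) and of 1376 on epithelium arrays (322.7 to 3863.1), with 15 of 18 stroma arrays above every epithelium array. The log2 difference was 1.68 ± 0.22 (SE), or 3.20-fold, with an adjusted p of 1.93e-05 in limma. *Fn1* had a median of 2266 on stroma arrays (862 to 4534.9) and of 783 on epithelium arrays (44.5 to 1653.5). All but 2 of the stroma arrays lay above every epithelium array, and the difference was 1.90 ± 0.30 (3.74-fold, adjusted p = 1.42e-04). The dimmer *Fn1* probe set was higher in the stroma of 16 of 18 glands.

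*Thbs2*, which encodes a thrombospondin known for restraining vessel growth, had a median of 969 on stroma arrays (325.2 to 1728.2) and of 232 on epithelium arrays (38.6 to 501.2). All but 1 stroma array exceeded all epithelium arrays, and the log2 difference was 2.08 ± 0.32 (4.22-fold, adjusted p = 1.04e-04). Both other *Thbs2* probe sets, at 2.22 ± 0.37 and 1.59 ± 0.23, also passed. *Sparc* was bright on every array, with a median of 9141 in the stroma (6371.4 to 10495.5) and of 4769 in the epithelium (3050.2 to 7952.2). Among the 7 genes higher in the stroma it had the smallest difference, 0.88 ± 0.15 on the log2 scale (1.84-fold, adjusted p = 3.93e-04).

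*Tnc* was higher in the stroma of 14 of 18 glands. Its stroma arrays had a median of 1399 (521.6 to 2474.4) and its epithelium arrays one of 653 (122.4 to 2045.9). The ranges overlapped widely, but the difference within glands, 1.17 ± 0.27 on the log2 scale (2.25-fold), passed the test with an adjusted p of 0.00444 in limma. The highest epithelium array, ERα(−/−) EE2 replicate 1, stood apart from the next at 901. A dim second *Tnc* probe set did not pass, at 0.50 ± 0.46 (adjusted p = 0.476 in limma). It was higher in the stroma of 9 glands and lower in 8.

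*Tnxb* and *Thbs3* were dim and scattered. *Tnxb* had a median of 216 on stroma arrays (2.2 to 787.5) and of 27.2 on epithelium arrays (1.4 to 231.7), a log2 difference of 2.48 ± 0.57 with an adjusted p of 0.00395. *Thbs3* had medians of 30.4 (2.3 to 314.9) and 3.95 (0.8 to 107.4) and exceeded the median signal of the array on 11 of 36 arrays. Each compartment held arrays at the bottom of the range of both genes. The log2 difference of *Thbs3*, 2.06 ± 0.62 (adjusted p = 0.0217), was 0.90 ± 0.39 (adjusted p = 0.109) when signals under 16 were raised to 16.

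*Vcan* went the other way. Its brightest probe set had a median of 3621 on stroma arrays (2038 to 7326.9) and of 5645 on epithelium arrays (4011.7 to 7736), and 10 of the 18 stroma arrays lay below every epithelium array. The epithelium was the higher compartment in 17 of 18 glands, and the log2 difference, stroma minus epithelium, was −0.66 ± 0.19 (1.59-fold higher in the epithelium, adjusted p = 0.0145). A second bright probe set, between 445.9 and 2135.6 on stroma arrays and between 1355.8 and 3581.9 on epithelium arrays, was lower in the stroma of all 18 glands (−0.99 ± 0.21, adjusted p = 0.00175). Of the 8 *Vcan* probe sets, 5 were called lower in the stroma, and 1 further probe set missed the threshold at an adjusted p of 0.0510. The 2 that never exceeded the median of their array gave −0.14 ± 0.63 and 0.67 ± 0.52. After subtraction of array medians the difference of the brightest probe set was −0.25 ± 0.18 (adjusted p = 0.383), and the call was lost.

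*Thbs1*, which encodes an activator of latent TGF-β, gave a median of 197 in the stroma (43.8 to 645.5) and of 281 in the epithelium (64.4 to 738). The difference of its brightest probe set, −0.69 ± 0.30, missed the threshold with an adjusted p of 0.105. Its other probe set, with medians of 141 and 332.5, passed at −0.92 ± 0.25 (adjusted p = 0.0132) and was lower in the stroma of 15 of 18 glands. The 9 genes on each array are plotted by group.

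**Figure D1:**
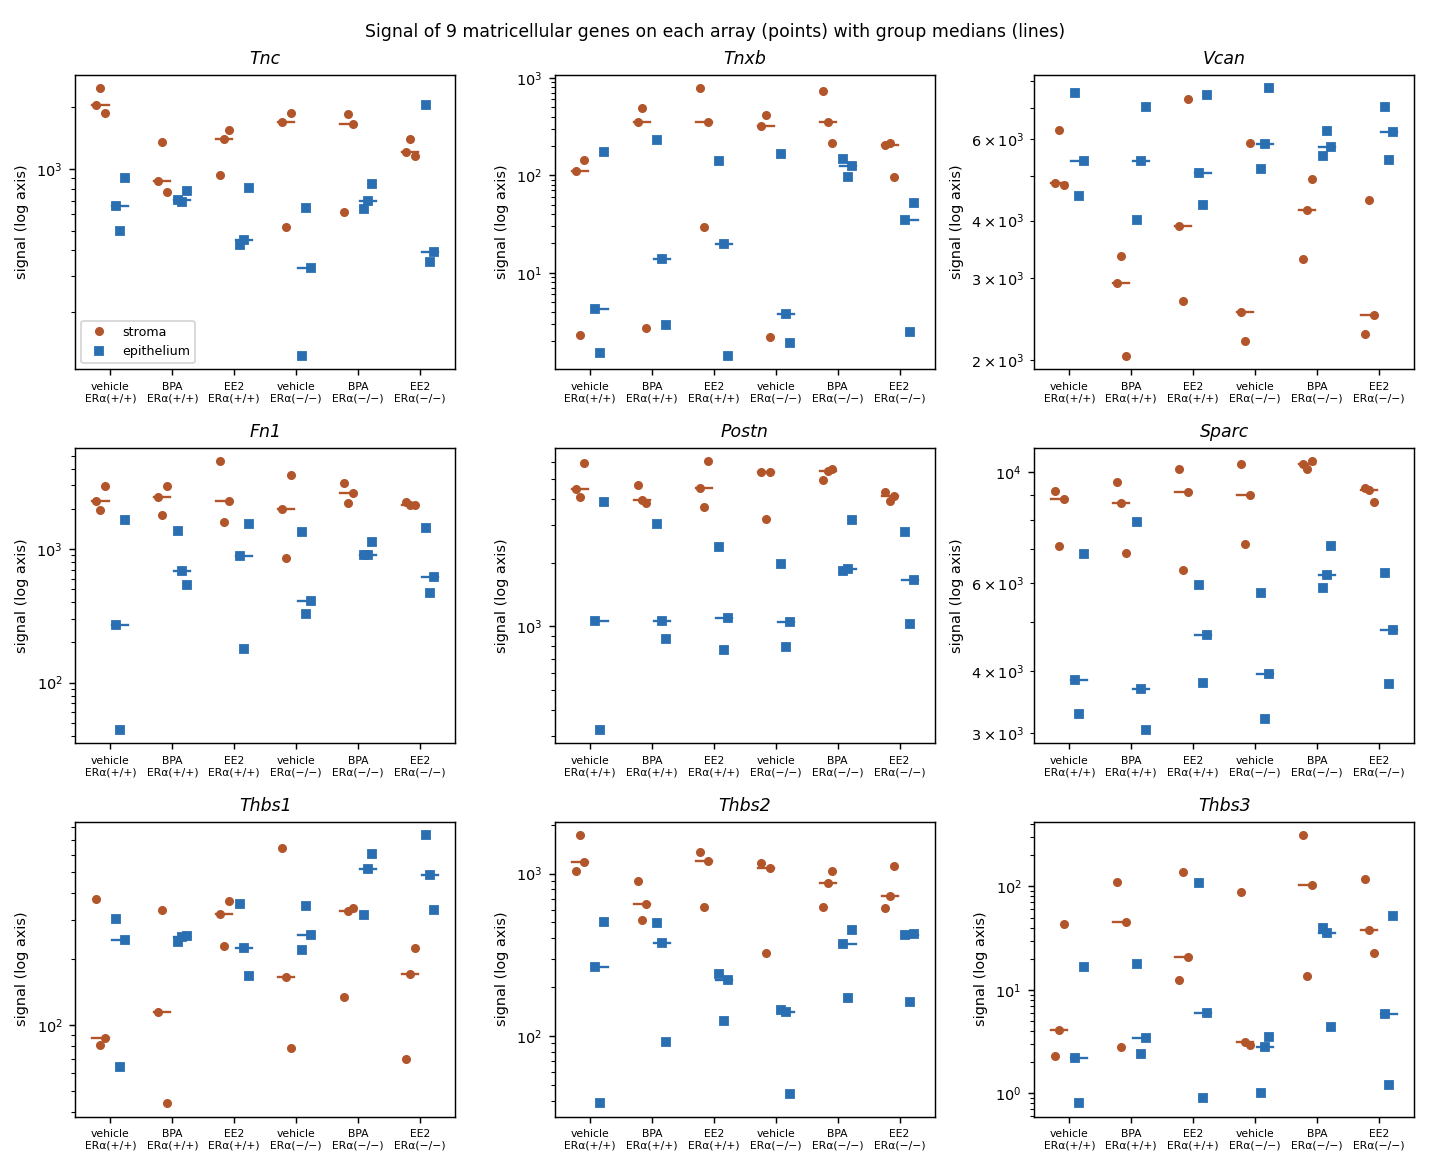
Signal of the brightest probe set of each gene on all 36 arrays (log axis), with 3 stroma arrays (circles) and 3 epithelium arrays (squares) for each genotype and exposure and a line at each group median. *Postn*, *Fn1*, *Sparc* and *Thbs2* are higher in the stroma in all 18 glands, whereas *Vcan* is higher in the epithelium in 17.

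**Figure D2:**
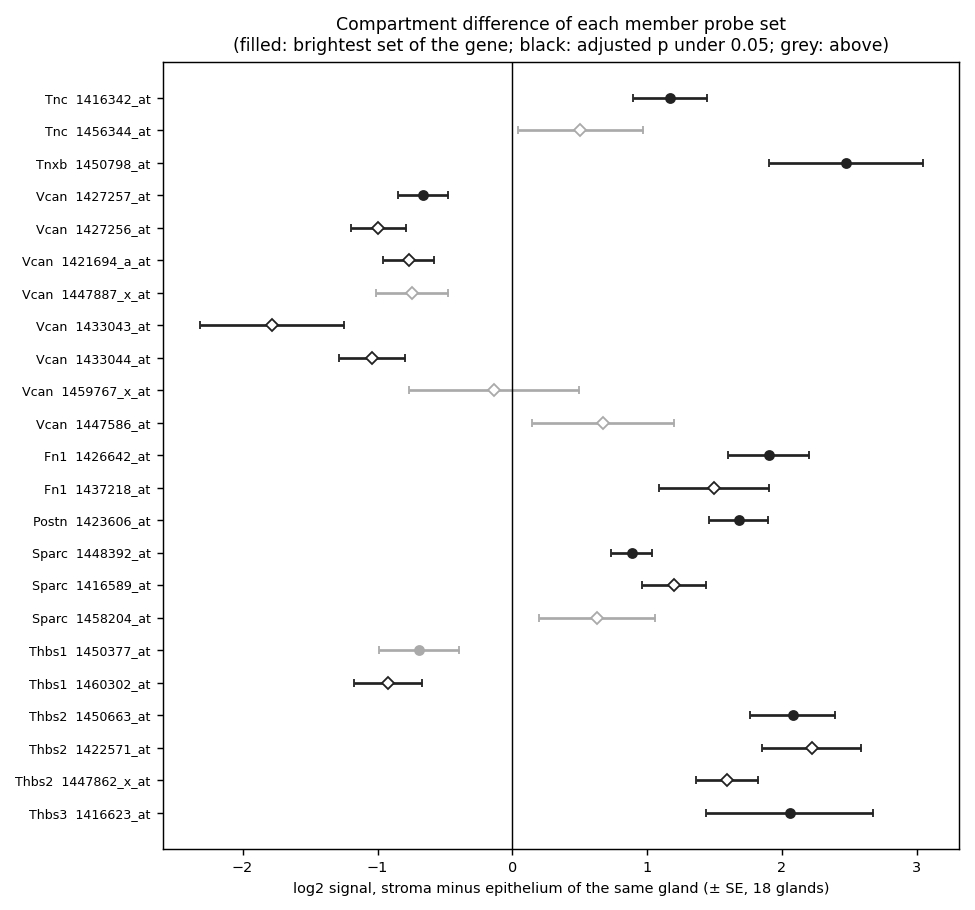
Log2 difference between stroma and epithelium of the same gland (± SE, 18 glands) for the 23 probe sets, with the brightest probe set of each gene filled and those past the adjusted p threshold in black. Probe sets of *Vcan* and *Thbs1* past the threshold lie left of 0 and all others past it lie right of 0.

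Within the epithelium, log2 signals of *Postn*, *Sparc*, *Fn1*, *Tnxb* and *Thbs2* correlated with the summed fibroblast markers of the same array at r of 0.72 or more. *Postn* on the 18 epithelium arrays gave r = 0.923 (rho = 0.948), and 0.897 without the 2 arrays farthest from the median. For *Sparc* r was 0.897 (rho = 0.880) and for *Fn1* 0.868 (rho = 0.891). *Tnxb* gave 0.807 (rho = 0.773) and *Thbs2* 0.72 (rho = 0.73), and *Thbs3*, *Thbs1* and *Tnc* were at 0.573, 0.476 and 0.262. *Vcan* gave r = −0.133 (rho = −0.187) with the fibroblast markers and r = 0.758 (rho = 0.779) with the 18 epithelial markers, against −0.0759 for *Postn* and −0.235 for *Sparc* with the latter. The other genes ran from −0.461 for *Tnxb* to 0.552 for *Tnc* with the epithelial markers. *Tnc* had a higher r with the epithelial than with the fibroblast markers, but its rho was 0.496 against 0.48. Without the 2 arrays farthest from the median its r was 0.321 against 0.326, so the order rested on those arrays. These points share array brightness. Subtraction of array medians takes the same varying quantity from both axes, so it gives no value free of brightness, and *Vcan*, whose own r with the array median was 0.0774, stood at 0.961 with the epithelial and 0.362 with the fibroblast markers on that scale. There *Tnxb* and *Thbs2* gave 0.443 and 0.293 with the fibroblast markers, and *Postn* 0.799. With the epithelial markers *Sparc* and *Tnc* gave 0.585 and 0.54 on that scale, so the sign of *Sparc* turned with the scale. These values describe the 18 arrays and were not tested.

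**Figure D3:**
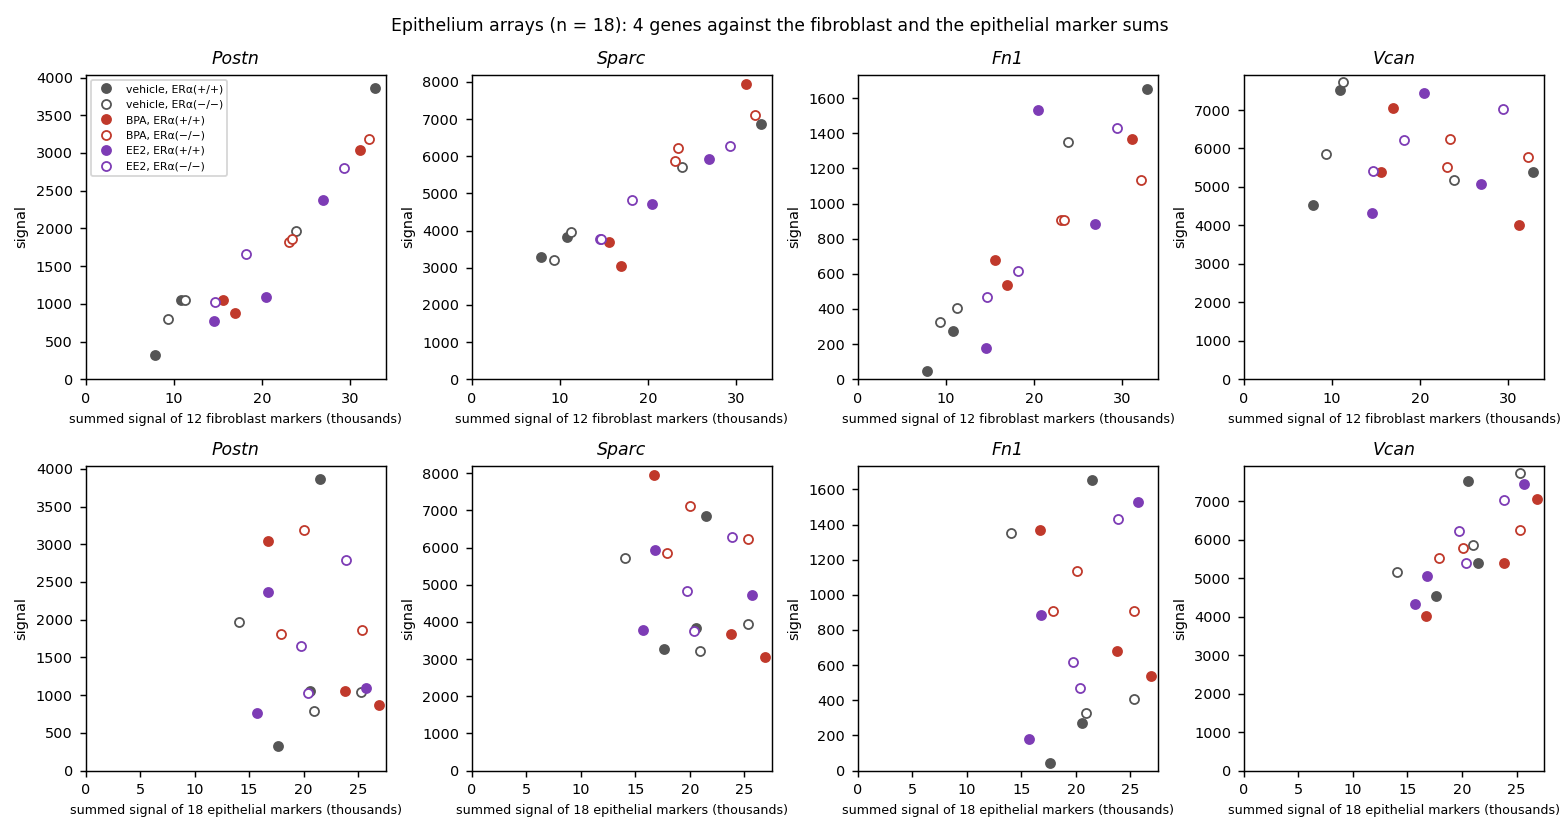
Signal of *Postn*, *Sparc*, *Fn1* and *Vcan* on the 18 epithelium arrays against the summed signal of 12 fibroblast markers (top row) and of 18 epithelial markers (bottom row) (each axis starts at 0 and is labelled with its unit). The first 3 genes climb along the fibroblast axis (r of 0.868 to 0.923 on log2 values), and *Vcan* climbs along the epithelial axis (r = 0.758).

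In the peri-ductal stroma of ERα(+/+) fetuses, *Tnc*, *Vcan* and *Thbs2* were the 3 of the 9 genes whose BPA arrays all lay below all vehicle arrays, a pattern that 3.91% of all probe sets showed in that comparison. None of the 9 genes passed the adjusted threshold, as none of the 45101 probe sets did (0%). None had an unadjusted limma p under 0.05 at its brightest probe set (3.83% of all probe sets did). By the methods' t-test on log2 signals, *Tnc*, *Vcan* and *Thbs2* had an unadjusted p under 0.05, as 1.8% of all probe sets did. Their geometric means (means taken on the log2 scale) were 2.18-, 1.93- and 1.92-fold lower after BPA. None of the 9 genes passed this test after Benjamini-Hochberg adjustment. The study chose *Tnc* and *Vcan*, the latter by the *Vcan* probe set of lowest p described below, as altered genes on these same samples, so their direction here is not independent evidence. For tenascin the study also reported less protein in the peri-ductal stroma after BPA by immunohistochemistry, which these arrays do not measure.

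*Tnc* gave 2049.4, 2474.4 and 1867.1 on the ERα(+/+) vehicle stroma arrays, a mean of 2130 ± 312 (SD, n = 3). After BPA it gave 874.1, 1350.7 and 770.9 (999 ± 309), and after EE2 937, 1397.1 and 1540.9 (1292 ± 315). Both exposed groups therefore lay below the vehicle group without overlap. The log2 difference was −1.13 ± 0.63 for BPA (adjusted p = 1.00 in limma) and −0.74 ± 0.63 for EE2 (adjusted p = 0.999), given at a different dose. In the ERα(−/−) stroma *Tnc* gave 1688.5, 521.6 and 1864.6 after vehicle, 619.1, 1850.7 and 1649.3 after BPA, and 1209.9, 1400.8 and 1153.2 after EE2. These groups overlapped, with differences of 0.07 ± 0.63 for BPA and 0.08 ± 0.63 for EE2. The BPA arrays of this genotype were brighter as a whole, by a median of 0.39 over all probe sets, and after subtraction of array medians the BPA difference of *Tnc* was −0.45 ± 0.72. The difference between genotypes in the response to BPA was 1.19 ± 0.89 in limma (adjusted p = 1.00), or 0.69 ± 1.02 with array medians subtracted, so the genotypes were not shown to differ. With 3 arrays against 3 an exact two-sided permutation test cannot give a p below 0.1.

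*Vcan* gave 4811.8, 6283.5 and 4781.2 in the ERα(+/+) stroma after vehicle and 2936.5, 3346.4 and 2038 after BPA. The groups did not overlap, and the log2 difference was −0.95 ± 0.60 (adjusted p = 1.00). After EE2 the arrays were at 3896.2, 2686 and 7326.9, on both sides of the vehicle arrays. In the ERα(−/−) stroma they were at 2534.1, 2199.7 and 5897 after vehicle and 3305.7, 4212.4 and 4925.6 after BPA, a difference of 0.35 ± 0.60 that turned to −0.17 ± 0.73 with array medians subtracted. The response differed between the genotypes by 1.3 ± 0.85 (adjusted p = 1.00 in limma).

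Probe sets of *Vcan* did not all move alike in the ERα(+/+) stroma. The one with the lowest p gave 1241.4, 1269.4 and 804 after vehicle and 540.1, 519.4 and 194.2 after BPA, again without overlap (−1.51 ± 0.66, adjusted p = 1.00). The other 2 bright ones gave −0.88 ± 0.63 and −0.25 ± 0.58, and both overlapped. A dim probe set, at 69.9, 0.6 and 21.7 after vehicle and 36, 43.1 and 47.8 after BPA, gave 2.12 ± 1.20.

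*Thbs2* gave 1038.4, 1728.2 and 1186 in the ERα(+/+) stroma after vehicle and 900.5, 521.5 and 645.3 after BPA, a log2 difference of −0.94 ± 0.63 (adjusted p = 1.00). Its second probe set, at 653.9, 660.4 and 909.6 against 479.9, 526.1 and 182.1, did not overlap either. The third overlapped, at 313.7, 558.4 and 307.9 against 204.7, 188.5 and 349.4. In the ERα(−/−) stroma the brightest probe set differed by 0.15 ± 0.63, or by −0.37 ± 0.73 with array medians subtracted. Between the genotypes its response differed by 1.09 ± 0.88 and that of the second probe set by 2.30 ± 1.15 (adjusted p = 1.00 for both in limma).

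**Figure D4:**
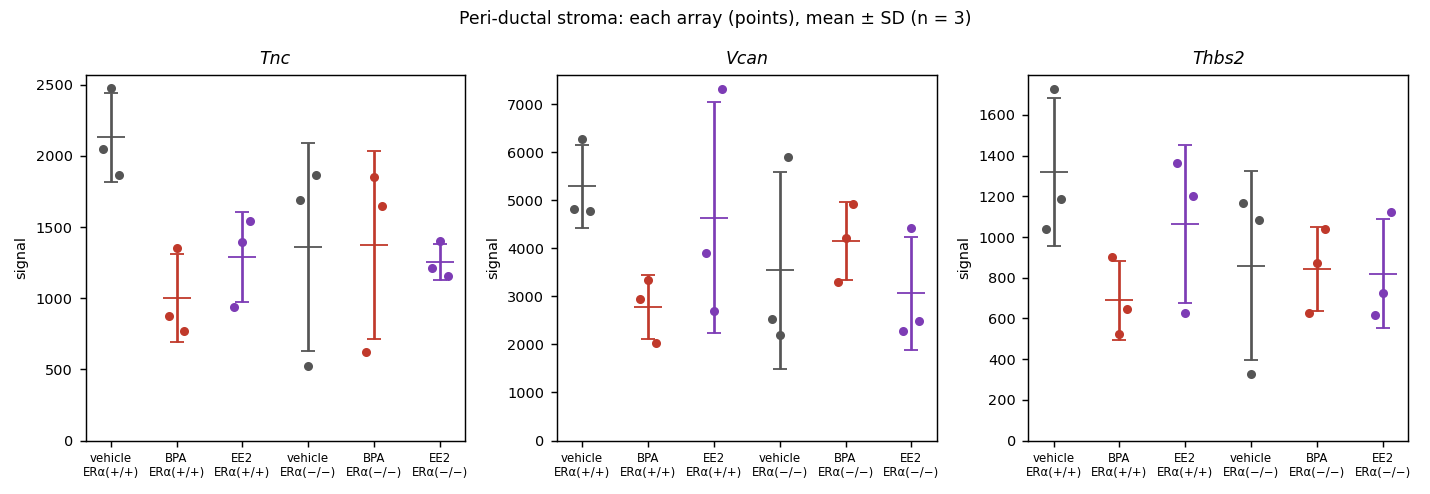
Signal of *Tnc*, *Vcan* and *Thbs2* in the peri-ductal stroma by exposure and genotype, with each array as a point and the mean ± SD (n = 3). In ERα(+/+) fetuses the 3 BPA arrays lie below the 3 vehicle arrays for each gene, whereas in ERα(−/−) fetuses the exposure groups overlap.

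Other measures of the same arrays also differed between vehicle and BPA. The 18 epithelial markers summed to 2983, 3139 and 8637 in the ERα(+/+) vehicle stroma and to 2946, 855 and 2709 after BPA, which did not overlap although the nearest arrays lay close together. ERα(+/+) vehicle replicate 3 also had raised epidermal markers, and vehicle replicate 2 and BPA replicate 3 had array medians of 12 and 14.6. Without the arrays of median under 15 the differences were −0.85 ± 0.76 for *Tnc*, −0.61 ± 0.70 for *Vcan* and −0.70 ± 0.75 for *Thbs2*, and without those of raised skin or muscle markers −1.22 ± 0.76, −1.02 ± 0.74 and, for *Thbs2*, −0.996 ± 0.76. Summed fibroblast markers ran from 40096 to 53106 after vehicle and from 35360 to 45057 after BPA. The *Gapdh* 3′ to 5′ ratios overlapped, at 14.5, 8.80 and 10.3 after vehicle and 9.33, 14.4 and 12.5 after BPA. The part of the epithelial and fibroblast signal in the *Tnc*, *Vcan* and *Thbs2* values was not tested.

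The remaining 6 genes showed no such separation in the stroma. *Sparc*, *Fn1* and *Postn* differed between BPA and vehicle by −0.01 ± 0.50, −0.02 ± 0.62 and −0.20 ± 0.51 in ERα(+/+) fetuses and by 0.24 ± 0.50, 0.51 ± 0.62 and 0.23 ± 0.51 in ERα(−/−) fetuses, where the signs turned with array medians subtracted (−0.28, −0.01 and −0.30). *Thbs1* gave 377.1, 81.2 and 86.8 after vehicle and 114.7, 336.2 and 43.8 after BPA in the ERα(+/+) stroma, and the groups overlapped. *Tnxb* and *Thbs3* had the largest differences and also the largest errors, for example 1.23 ± 2.16 and 1.70 ± 1.65 after BPA. No gene of the 9 lay without overlap below vehicle after BPA in the ERα(−/−) stroma (2.26% of all probe sets did), *Tnc* alone did after EE2 in the ERα(+/+) stroma (3.83%), and none did after EE2 in the ERα(−/−) stroma (5.83%). None of the 9 genes had an unadjusted limma p under 0.05 in these 3 comparisons, where 4.64%, 4.42% and 4.16% of all probe sets did.

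In the epithelium the BPA arrays were brighter as a whole. Over both genotypes, the median of all probe sets after BPA exceeded that after vehicle by 0.68 on the log2 scale, and the median of the 9 genes by 0.70. *Tnc* in the ERα(+/+) epithelium gave 661.7, 497.4 and 901 after vehicle, 705.5, 690.6 and 779.8 after BPA and 422.9, 448.7 and 809 after EE2, and these groups overlapped. In the ERα(−/−) epithelium it gave 122.4, 644.9 and 328.4 after vehicle, 639.9, 695.4 and 843.2 after BPA and 2045.9, 349.8 and 391.5 after EE2. *Vcan* had the smallest SE there, with differences of −0.09 ± 0.44 and −0.08 ± 0.44 after BPA in ERα(+/+) and ERα(−/−) fetuses and of −0.06 ± 0.44 and 0.00 ± 0.44 after EE2. After subtraction of array medians the BPA differences of *Vcan* were −0.86 ± 0.60 and −1.12 ± 0.60.

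*Thbs2* in the ERα(−/−) epithelium gave 144.5, 141.5 and 44.1 after vehicle, 369.5, 171 and 447.2 after BPA and 418.4, 160.9 and 422.4 after EE2. Both exposed groups lay above vehicle without overlap, with log2 differences of 1.66 ± 0.90 for each (adjusted p = 0.484 and 0.625 in limma). After BPA *Sparc* and *Thbs3* also lay above vehicle without overlap, as 24.8% of all probe sets did, and after EE2 *Thbs2* was the only 1 of the 9, against 16.5%. *Thbs3* was dim, at 1 to 3.5 after vehicle and 4.4 to 40 after BPA, under the array medians given below. *Sparc* gave 5713.1, 3208.7 and 3948.6 after vehicle and 5863.8, 6229.4 and 7103.6 after BPA (0.61 ± 0.50), which turned to −0.42 ± 0.57 with array medians subtracted. On that scale the BPA difference of *Thbs2* was 0.62 ± 0.69. The second bright *Sparc* probe set ran from 1148.4 to 2640 after vehicle and from 4516.9 to 5026.9 after BPA on the deposited scale. On the same arrays the fibroblast markers summed to 9357 to 23830 after vehicle and 23043 to 32181 after BPA, and the array medians were 26.2, 42.8 and 21.2 after vehicle and 50.1, 61.5 and 66.8 after BPA. Adipocyte markers summed to 6909 to 10501 after vehicle, 23497 to 27789 after BPA and 14415 to 19821 after EE2, and endothelial markers to 428 to 878, 2512 to 3633 and 1369 to 2278. Smooth muscle and pericyte markers ran from 1412 to 1557 after vehicle, from 3062 to 4590 after BPA and from 2253 to 4446 after EE2. Each of these 3 sums lay above vehicle without overlap after both exposures. The ratio of the 3′ to the 5′ probe set of *Gapdh*, a measure of RNA quality, was 12.6, 12.4 and 8.56 after vehicle. It was 8.06, 5.09 and 8.11 after BPA and 5.46, 7.05 and 6.86 after EE2, lower without overlap in both exposed groups. The same ratio for the β-actin control overlapped, at 0.918 to 1.15 after vehicle, 1.02 to 1.14 after BPA and 0.976 to 1.05 after EE2. The study reported lower 3′ to 5′ ratios for housekeeping genes than these *Gapdh* values. The part of these measures in the *Thbs2*, *Sparc* and *Thbs3* values was not tested. None of the 9 genes had an unadjusted limma p under 0.05 in the epithelium after BPA in ERα(+/+) fetuses (8.44% of all probe sets did), after BPA in ERα(−/−) fetuses (11.2%), after EE2 in ERα(+/+) fetuses (6.15%) or after EE2 in ERα(−/−) fetuses (8.57%).

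**Figure D5:**
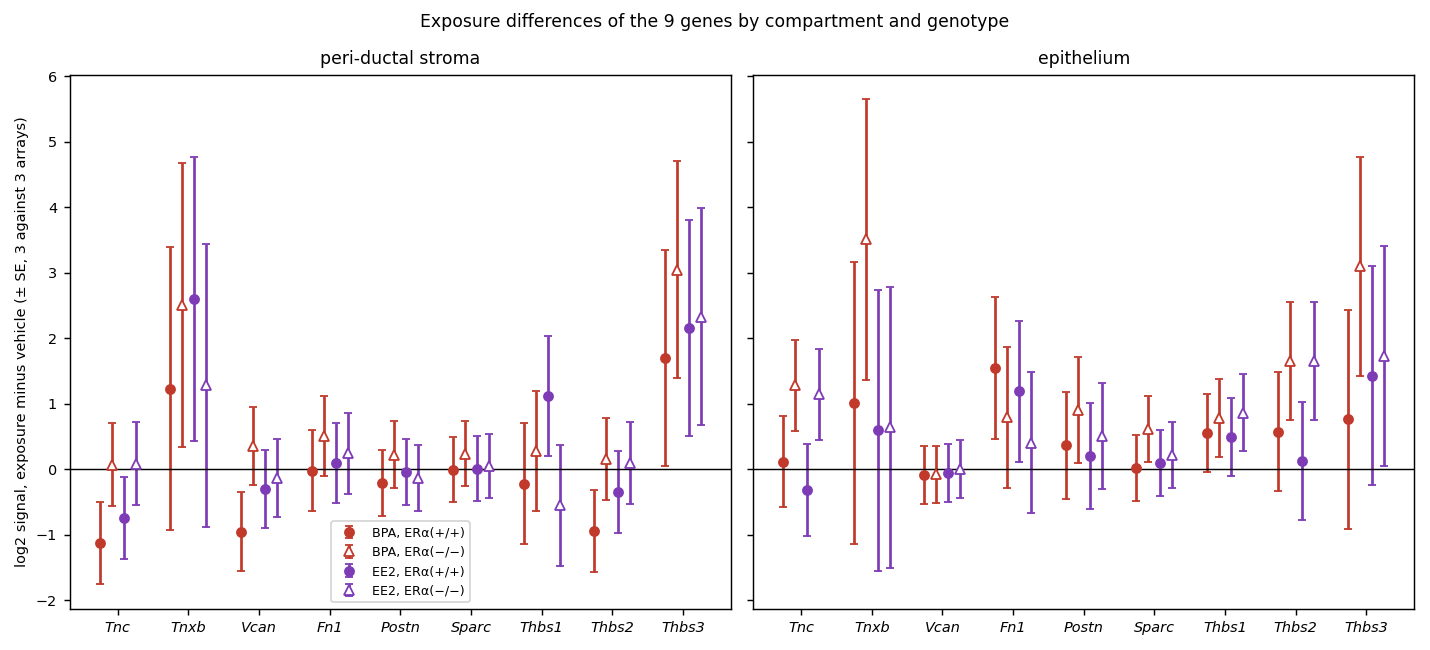
Log2 difference between exposed and vehicle arrays (± SE, 3 against 3 arrays) for the 9 genes, with BPA in red and EE2 in purple, ERα(+/+) as filled circles and ERα(−/−) as open triangles. *Tnc*, *Vcan* and *Thbs2* after BPA in the ERα(+/+) stroma lie below 0 by more than 1 SE, as does *Tnc* after EE2 there. Other points, among them *Thbs2* in the ERα(−/−) epithelium after both exposures, lie above 0 by more than 1 SE. *Tnxb* and *Thbs3* have the widest errors.

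By genotype, over all exposures, 1 of the 9 genes had an unadjusted limma p under 0.05, in the epithelium. *Thbs1* in the epithelium ran from 64.4 to 355.7 (median 245) over the 9 ERα(+/+) arrays and from 219.7 to 738 (median 349) over the 9 ERα(−/−) arrays. The groups overlapped, and the log2 difference was 0.88 ± 0.34 (adjusted p = 0.588 in limma), in a comparison where 8.19% of all probe sets had such a p and the median of all probe sets was 0.38 higher in the ERα(−/−) epithelium. After subtraction of array medians it was 0.36. Its second probe set gave 0.59 ± 0.46. In the stroma none of the 9 genes had an unadjusted limma p under 0.05 by genotype over all exposures (3.82% of all probe sets did). In vehicle stroma *Tnc* was lower in all 3 ERα(−/−) arrays than in any ERα(+/+) array (−0.84 ± 0.63), as 3.3% of all probe sets were. The ranges nearly met, at 521.6 to 1864.6 for ERα(−/−) and 1867.1 to 2474.4 for ERα(+/+).

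None of the 9 genes passed the adjusted threshold in any of the 24 comparisons of exposure, genotype or their interactions, where 0%, 0.00222% or 0.00443% of all probe sets did. Over the same 24 comparisons the difference of *Thbs1* by genotype was the 1 value with an unadjusted limma p under 0.05 among the brightest probe sets of the 9 genes. The other probe sets of these genes were not counted. By the methods' t-test at unadjusted p and at least a 2-fold change, *Tnc* passed in the ERα(+/+) stroma after BPA, as did 701 of the 45101 probe sets (1.55%), while *Vcan* and *Thbs2* fell short of the fold. The response to BPA differed between the compartments by −1.23 ± 0.70 for *Tnc* and by −1.51 ± 0.78 for *Thbs2* (adjusted p = 0.681 and 0.670 in limma), stroma minus epithelium over both genotypes, where the median over all probe sets was −0.51. For *Sparc* the same interaction was −0.20 ± 0.43.

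Related genes of the pericellular matrix were compared between the compartments in the same fit. Of 29 measured, 9 passed as higher in the stroma and 0 as lower (1 had an unadjusted limma p under 0.05 in that direction). Of all probe sets, 4.51% passed as higher and 16.8% as lower. The median log2 difference was 0.05, against −0.35 over all probe sets. The 3 with the smallest p were *Matn2* (1.88 ± 0.25, adjusted p = 2.28e-05), *Ccn3* (3.28 ± 0.61, adjusted p = 6.66e-04) and *Ccn4* (1.28 ± 0.27, adjusted p = 0.00210), which encode a matrilin and members of the CCN family. *Tnn* and *Tnr*, which encode the other tenascins, differed by 0.18 ± 0.40 and 0.05 ± 0.34 with mean signals between 3.09 and 3.96 in either compartment.

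Receptors of these proteins divided between the compartments. Of 19 measured, 6 passed as higher in the stroma and 5 as lower, where 4.51% and 16.8% of all probe sets did. The median difference was −0.03, against −0.35 over all probe sets. The 3 of smallest p were all higher in the epithelium, namely *Sdc4* (−2.69 ± 0.21, adjusted p = 4.65e-08), a syndecan that binds fibronectin and tenascin-C, and the integrin subunits *Itgb8* (−3.58 ± 0.34, adjusted p = 4.27e-07) and *Itga8* (−3.43 ± 0.44, adjusted p = 1.56e-05). Further receptors are named here after their values were seen. *Itga9*, whose product pairs with the β1 subunit to bind tenascin-C, was also higher in the epithelium (−1.65 ± 0.26, adjusted p = 1.18e-04). On the stromal side stood the thrombospondin receptors *Cd36* (2.55 ± 0.50, adjusted p = 0.00120) and *Cd47* (1.40 ± 0.28, adjusted p = 0.00122), and *Lrp1* (1.88 ± 0.29, adjusted p = 1.20e-04).

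Of 15 genes that assemble or cut this matrix, 4 passed as higher in the stroma and 2 as lower, where 4.51% and 16.8% of all probe sets did. The median difference was 0.00, against −0.35 over all probe sets. *Mmp2* (1.96 ± 0.29), *Pcolce* (2.40 ± 0.36) and *Adamts5*, a protease that cleaves versican (2.78 ± 0.54), were the 3 of smallest p, with adjusted p of 7.31e-05, 7.80e-05 and 0.00107. *Tgm2*, a transglutaminase that crosslinks fibronectin (−1.22 ± 0.26, adjusted p = 0.00208), and *Adamts4*, also a versican-cleaving protease (−0.82 ± 0.20, adjusted p = 0.00709), were higher in the epithelium. These 2 were named after their values were seen, as were *Has1* and *Has2*. These hyaluronan synthase genes differed by 0.00 ± 0.27 and −0.22 ± 0.28. None of the genes of these 3 lists passed the adjusted threshold of limma after BPA in the ERα(+/+) stroma. There 0, 0 and 1 had an unadjusted limma p under 0.05, as 3.83% of all probe sets did. There the median differences of the lists were −0.10, −0.17 and −0.15, against −0.07 over all probe sets.

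The genes whose pattern over the 36 arrays was most like that of a member, on log2 signals less the array median and among 8137 genes with a mean signal of at least 100, were as follows. *Sparc* was most like *Col1a1* (r = 0.965, and 0.956 within the stroma and 0.888 within the epithelium) and *Col3a1* (r = 0.961). *Postn* was most like *Agtr2*, *Nid1* and *Col5a2* (r = 0.972, 0.968 and 0.964), *Fn1* most like *Dcn*, *Col5a2* and *Cd248* (0.929, 0.926 and 0.919) and *Thbs2* most like *Col5a1*, *Pdgfrb* and *Agtr2* (0.938, 0.924 and 0.915). *Vcan* was most like *D030056L22Rik*, *Paics* and *Syncrip* (0.906, 0.899 and 0.893), and within the epithelium its r with *Syncrip* was 0.967. *Tnc* was most like *Sec23a*, *Kdelr3* and *Emp1* (0.853, 0.839 and 0.825), the first 2 of which encode proteins of transport between the endoplasmic reticulum and the Golgi. The other 3 members reached lower values, with 0.797 for *Tnxb* and *Orm1*, 0.716 for *Thbs3* and *Sult1a1* and 0.587 for *Thbs1* and *Srrm1*. Arrays of both compartments share these points, so a difference between the compartments alone raises r, and the subtracted median is a term common to both genes of a pair. Without the subtraction these pairs gave 0.734 for *Tnc* and *Sec23a*, 0.768 for *Vcan* and *Syncrip* and 0.919 for *Sparc* and *Col1a1*.

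Among themselves, the members gave correlations that depended on the scale. Over the 18 stroma arrays, log2 signals of *Tnc* gave r = 0.660 with *Vcan*, 0.662 with *Thbs2* and 0.468 with *Postn*, and *Postn* gave 0.680 with *Sparc* and 0.585 with *Vcan*. All pairs of *Tnc*, *Vcan*, *Fn1*, *Postn*, *Sparc* and *Thbs2* had positive values, from 0.115 for *Tnc* and *Sparc* upwards. With array medians subtracted, the lowest of these pairs was at 0.504, and *Tnc* gave 0.801 with *Vcan* and 0.799 with *Thbs2*. The subtraction puts the same array median into every gene and so adds a term that the genes share. In the stroma r with the array median was 0.0367 for *Tnc*, −0.0104 for *Vcan* and −0.00384 for *Thbs2*, against 0.721 for *Sparc* and 0.732 for *Tnxb*. *Tnxb* gave r from −0.324 to 0.603 with the 6 genes, and from −0.704 to −0.527 with medians subtracted, so that its sign with *Postn* and *Sparc* turned with the scale. In the epithelium *Postn* gave r = 0.909 with *Sparc*, 0.868 with *Fn1* and 0.825 with *Tnxb*, and *Tnc* gave 0.258 with *Vcan*. *Vcan* with *Sparc* was at −0.212 there, or 0.611 with medians subtracted. All points share array brightness, and the values describe 18 arrays and were not tested.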

How the data were processed

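Peri-ductal stroma and ductal epithelium of the fourth inguinal mammary gland of 18 female E19 fetuses were laser-captured, and each of the 36 amplified RNA samples was hybridized to 1 Affymetrix Mouse Genome 430 2.0 array. The deposited values are linear signal intensities that the authors obtained with GCOS, the scanner maker's software. The methods also name RMA normalization in Partek and a log transformation, but the deposited values are linear and their array medians differ from 10.9 to 66.8. Whether they passed through that step is not known, and the GCOS settings are not given in the sources used here. The values carry no detection call, and the number of arrays limits their precision.

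Values were raised to at least 0.1, since 39 values are 0, and log2-transformed. limma 3.58.1 in R 4.3.3 was fitted to all 45101 probe sets, with Benjamini-Hochberg adjustment over all of them and a threshold of 0.05. The compartment comparison and its interactions with exposure used 36 arrays with the gland as a block. The stroma and epithelium of 1 gland share a fetus and a number in the labels, and 14 of the 18 stroma arrays deviated from their group mean most like the epithelium of their own gland. Exposure and genotype comparisons used the 18 arrays of a compartment in 6 groups of 3. Each array was a separate fetus, and no pair of arrays held identical values. The methods name a t-test, which was run as an alternative. Alternatives covered scaling, offset, filter, array weights, blocks and left-out arrays. Before use, the fits were run on simulated data with known changes, where a minimum recovery was required only of the compartment comparison. The simulated noise was independent between arrays, so differences in array brightness were not part of it.

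Gene symbols came from a platform annotation, in which 34958 probe sets carry 1 symbol, 932 several and 9211 none. Each of the 9 genes was described by its probe set of highest mean over the 36 arrays. The other probe sets are plotted for the compartment difference, and for the remaining comparisons only some are given. The genes of likest pattern were the 3 with the highest Pearson correlation over 36 arrays among genes with a mean signal of at least 100. From the other gene lists, the 3 genes of smallest p in a comparison were named. The genes and lists were chosen with earlier results of these data known. Promoter sequences are those of RefSeq on GRCm38.p6, where 7 of the 9 genes matched by symbol.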

Additional observations from a re-analysis of the deposited data

How the results depend on the processing

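The count of the 9 genes called between the compartments was 8, and lay between 6 and 9 under the alternatives. It was 8 to 9 with 1 array left out at a time, 7 with array medians subtracted, 7 without the arrays of median signal under 15 and 6 without those of raised skin or muscle markers, both chosen after seeing the data. *Vcan* lost the call with array medians subtracted (−0.25, adjusted p = 0.383) and without the skin or muscle arrays (−0.65, adjusted p = 0.0686), and *Thbs3* with signals raised to 16 (0.90, adjusted p = 0.109) and without either set of arrays (1.93 and 1.90, adjusted p = 0.0534 and 0.0615). *Thbs1* gained one with array weights (−0.80, adjusted p = 0.0380) and without ERα(−/−) vehicle replicate 1 (−0.82, adjusted p = 0.0443). Without the gland as a block, the replicate block of this comparison, the count was 8. In the 24 comparisons of exposure and genotype no alternative with adjusted p called any of the 9 genes, the replicate block included. That block paired samples by their number, and whether a number stands for a litter is not given. By the unadjusted methods' t-test with a 2-fold change the count for BPA in the ERα(+/+) stroma was 1 at the brightest probe sets. Of all probe sets, 1.55% passed. Other probe sets reversed the direction. For *Vcan* these gave 0.67 between the compartments, 2.12 and 0.19 for BPA in the ERα(+/+) stroma, and −2.03, −1.14 and −0.080 for the difference of that response between genotypes. For *Thbs2*, 1 gave −0.21 after BPA in the ERα(−/−) epithelium. The cause was not tested. Dim signals limit *Tnxb*, *Thbs3* and these probe sets, and 3 arrays a group limit every exposure comparison.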

Other observations

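One further probe set is annotated to both *Thbs1* and *Pald1*, a phosphatase-domain gene, so its signal cannot be given to either. It had a median of 647 on stroma arrays (407.1 to 2632) and of 929 on epithelium arrays (238.4 to 1541.5). The compartments overlapped, and the log2 difference, stroma minus epithelium, was −0.32 ± 0.29 (adjusted p = 0.483 in limma).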
